A study of Mus musculus with 30 samples.

Results

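Effector memory CD4 T cells are helper T cells that have met antigen, have left the naive state and carry few of the receptors that lead naive cells into lymph nodes. They were picked here cell by cell from single-cell RNA-seq of mouse spleen. A cell was a member when it had at least 200 genes and at most 10% mitochondrial UMIs (unique molecular identifiers, each standing for 1 captured transcript), at least 1 UMI of Cd3e, Cd3d or Cd3g, at least 1 UMI of Cd4, and at least 2 UMIs in sum over S100a4, Cxcr3, Icos, Maf and Tnfsf8. It also had no UMI of Lef1, Ccr7, Foxp3, Cd8a, Cd8b1 or Zbtb16, and at most 2 UMIs over Cd79a, Cd79b and Ms4a1. The rule found 112 members among 53644 barcodes, of which 46886 passed the limits on genes and mitochondrial UMIs.

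The 4 libraries came from splenocytes depleted of red blood cells, of which 2 carry the genotype label Smc3-WT and 2 the label Smc3-cKO. The SMC3 protein is part of cohesin, a ring that holds sister chromatids together and extrudes chromatin loops. The labels do not name the Cre line, the deleted exons, the sex or the strain, and leave unsaid if different mice gave the 2 libraries of each genotype, so p-values measure only the spread between these libraries. An age of 6 to 8 weeks is given in the protocol text for the mice whose dendritic cells were sorted. The other 26 samples of the series (bulk RNA-seq, ChIP-seq and Hi-C) were not analysed here.

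Naive CD4 T cells circulate through lymphoid organs, guided there by homing receptors such as Ccr7 and kept in the naive state by a transcriptional programme that includes Lef1, Tcf7, Satb1 and Bach2. After activation by antigen, daughter cells take up helper programmes: Th1 cells under T-bet (Tbx21), Th2 cells under Gata3, and follicular helper cells under Bcl6, which give help to B cells. Some of these cells persist as memory cells, among which effector memory cells lack Ccr7 and carry Cd44, integrins and receptors for inflamed tissue.

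The libraries held 16096, 14352, 9074 and 14122 barcodes and 51299056, 48970568, 40367056 and 46678046 UMIs for Smc3-WT replicates 1 and 2 and Smc3-cKO replicates 1 and 2. Values given as a series of 4 keep this order throughout. Members numbered 21, 24, 16 and 51, and their UMIs summed to 86565, 102257, 93954 and 181874. The median member had 3624 UMIs, against 3150.5 in naive CD4 cells. Pairs of libraries shared between 36 and 61 barcode sequences, and no member's barcode occurred in another library. Smc3-WT replicate 1 stood apart in RNA quality: its barcodes had a median mitochondrial share of 7.51%, against 3.25%, 5.64% and 3.97% in the others, and members there had a ribosomal protein share of 5.60% of UMIs against 12%, 7.03% and 9.11%. In both genotypes the library numbered 1 had the higher mitochondrial and the lower ribosomal protein share, and Gm42418 stood at 18807, 7550, 29025 and 6658 CPM in members.

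Maf, a transcription factor of follicular helper and interleukin-10-producing cells, was the effector gene found most often, in 75 of 112 members with 285 UMIs. Icos, the inducible costimulator, had a UMI in 61 members, Tnfsf8 (the ligand CD30L) in 45, S100a4, a calcium-binding protein of memory T cells, in 36, and Cxcr3, a chemokine receptor of Th1 cells, in 32. These genes chose the members, so the counts only describe them. By library, Maf was found in 14 of 21, 11 of 24, 14 of 16 and 36 of 51 members, and S100a4 in 2 of 21, 13 of 24, 4 of 16 and 17 of 51. Members of Smc3-WT replicate 1 therefore entered the gate mostly without S100a4, whereas more than 1 in 2 members of Smc3-WT replicate 2 carried it.

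The most abundant transcripts of the members were Malat1, Gm42418, Tmsb4x, Actb, Arhgap15, Ptprc, Mbnl1, Inpp4b, Tpt1 and Skap1. Ptprc encodes the leukocyte antigen CD45 and had a UMI in 112 of 112 members. Tmsb4x, the actin-binding peptide thymosin β4, stood at 3674, 11412, 4822 and 8605 CPM (counts scaled to a common total), lowest in Smc3-WT replicate 1.

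The gate joined members with different effector genes. Maf without S100a4 was found in 56 members, both genes in 19, S100a4 without Maf in 17 and neither in 20. A UMI of a single effector gene was found in 24 members, of 2 genes in 52, of 3 genes in 24, of 4 genes in 11 and of all 5 in 1 member. The sum over the 5 genes had a median of 4.5 UMIs and a maximum of 50. At the threshold, 26 members had exactly 2 UMIs (10, 3, 0 and 13 by library), and 35 cells that met every other part of the rule had 1 (6, 6, 4 and 19). Over all libraries the median depth was 2859.5 UMIs just inside and 2754 just outside. Within libraries the medians were further apart, at 3374.5 against 2906 in Smc3-WT replicate 1, 3701 against 1686 in Smc3-WT replicate 2 and 2388 against 2766 in Smc3-cKO replicate 2.

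The 36 members with S100a4 were set against the 76 without, in CPM with exact Poisson 95% intervals for counting error. S100a4 is a rule gene, so members without it entered through the other effector genes, and the sums only describe the 2 sets. The intervals leave out the spread between members. Of 168 S100a6 UMIs in members with S100a4, 34 lay in 1 Smc3-cKO replicate 1 member and 30 in 1 Smc3-cKO replicate 2 member. S100a6 stood at 919 CPM (786 to 1069) against 145 (104 to 197), Crip1, a LIM-domain protein, at 777 (654 to 916) against 174 (129 to 230), and Lgals1, the lectin galectin-1, at 449 (357 to 557) against 99.3 (66.0 to 144). Among adhesion genes, Itgb1, an integrin chain, stood at 1466 CPM (1296 to 1653) against 812 (711 to 925), whereas the intervals of Itga4, which encodes its partner chain α4, overlapped, at 1373 CPM (1209 to 1554) against 1621 (1476 to 1777). Members without S100a4 had more Tox, Ikzf2 and Cxcr5: Tox, a nuclear factor of follicular helper and chronically stimulated T cells, stood at 2533 CPM (2350 to 2726) against 1434 (1265 to 1618). Cxcr5, which guides T cells into B cell follicles, stood at 60.3 CPM (35.1 to 96.6) against 5.47 (0.139 to 30.5). For Bcl6, Pdcd1, Il21, Tox2 and Sh2d1a, also genes of follicular helper cells, the intervals overlapped. Bcl6 stood at 74.5 CPM (46.1 to 114) in members without S100a4 against 38.3 (15.4 to 78.9). The 2 sets had different shares of the libraries, with 2, 13, 4 and 17 members with S100a4, so library and S100a4 cannot be told apart in these sums.

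The difference was also tested between 2 kinds of member. The first were 6 members with at least 2 UMIs of S100a4 as their only effector gene. The second, with at least 2 UMIs of Icos and Maf and no S100a4, numbered 54. Smc3-cKO replicate 1 had no member of the first kind, so its 9 members of the second were left out. The 3 libraries that entered held 1, 3 and 2 members of the first kind and 12, 8 and 25 of the second. No gene of 322 passed (0% called, edgeR quasi-likelihood test with library as a block, Benjamini-Hochberg adjusted p under 0.05). An unadjusted p under 0.05 was reached by 15 genes, and DESeq2 called 0. The first kind held 20321 UMIs in all, which limits what this test could detect.

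Genes of Th1 cells (Tbx21, Ifng, Ccl5 or Nkg7) had at least 1 UMI in 56 of 112 members, 11 of 21, 11 of 24, 12 of 16 and 22 of 51 by library. Genes of follicular helper cells (Bcl6, Cxcr5, Il21, Pdcd1 or Tox2) had one in 41 members, and 23 members held UMIs from both lists. That overlap was not compared with the one unrelated genes would give. No naive share is given for the follicular helper count, and Bcl6 did not pass against naive cells, as given below. Genes of Th2 cells had a UMI in 45 members, which was Gata3 in 44 of them. Gata3 is also present in naive T cells, with a UMI in 275 of 1402. Genes of Th17 cells (Il17a, Il23r or Ccr6) were found in 7 members, each of which held Ccr6 (3 with S100a4 and 4 without). Il17a had a UMI in 0 of 112 members. That count allows a share of up to 2.68% of members with a UMI, and does not limit the share that express the gene. A UMI of none of these genes was found in 22 members.

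Free RNA can give UMIs in cells that do not make a gene, so shares of cells with a UMI were set beside naive CD4 cells and B cells (median 2909 UMIs), with each cell thinned to 1500 UMIs. Tbx21 was then found in 12 of 109 members (11%) against 0.433% of naive CD4 cells and 0.713% of B cells; unthinned, it was found in 24.1%, 0.642% and 1.54%. Ccl5, a chemokine of effector T cells, was found in 17.4% of members against 2.88% and 3.13% after thinning, and in 25%, 4.56% and 5.52% before. Gzmk, a granzyme, was found unthinned in 8 of 112 members (7.14%) against 0 naive CD4 cells and 0.0213% of B cells, in 0, 0, 5 and 3 members by library. Cytokine transcripts were rare, with Ifng in 2 members, Il4 in 4 and Il21 in 3. Il10 and Il13 were found in none, as was the immediate early gene Fos. Cd69, an early activation marker, was found after thinning in 6.42% of members and 5.03% of B cells (14.3% and 9.62% before). Whether the B cell share came from free RNA was not tested, so no background is given for this gene.

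The members were compared with 1402 naive CD4 cells of the same libraries, defined by the same CD3 and CD4 limits, at least 2 UMIs in sum over Lef1 and Ccr7, and no UMI of the 5 effector genes, Foxp3, Cd8a, Cd8b1 or Zbtb16. Cells of each kind were summed per library and fitted with library as a block, and the 18 genes that any gate used were left out. Both gates were chosen on genes of these same cells, so this comparison describes what goes with the gates. Of 6000 genes, 381 were higher in members (6.35%) and 392 lower (6.53%), 12.9% in all, with a median log2 difference over all genes of -0.05. DESeq2 called 483, 299 higher and 184 lower.

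Memory and adhesion genes were higher in members. Itgb1, the integrin β1 chain that pairs with α4 in tissue entry (chromosome 8, 128685654 to 128733579, RefSeq annotation of GRCm38.p6, the mm10 build), stood at 873, 1052, 812 and 1229 CPM in members against 75.4, 63.8, 43.8 and 47.9 in naive cells. CPM of named genes in the comparisons are scaled by edgeR's TMM factors of that fit, so 1 gene can differ slightly between comparisons. Every member library lay far above every naive library, with a log2 difference of 4.13 (SE 0.18, adjusted p = 1.62e-12). Cd44, the hyaluronan receptor that marks antigen-experienced T cells (chromosome 2, 102811141 to 102901669), stood at 533, 324, 473 and 404 CPM against 77.7, 62.6, 96.9 and 55.1, a log2 difference of 2.59 (SE 0.18, adjusted p = 1.42e-09). The groups did not overlap for either gene, and the rule used neither.

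S100a6 stood at 68.1, 560, 411 and 557 CPM against 24.4, 34.7, 6.25 and 27.6 in naive cells, a log2 difference of 4.04 (SE 0.32, adjusted p = 7.22e-09). Its low member library, Smc3-WT replicate 1, was also the one with few S100a4 members. Ahnak, a large scaffold protein, rose by 3.58 on the log2 scale, Itga4, the α4 integrin chain, by 1.18, and Il2rb, the β chain of the interleukin-2 and interleukin-15 receptors, by 3.34. Of 23 memory and effector genes tested, 17 were higher, 0 lower and 6 did not pass, with a median log2 difference of 2.25.

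**Figure D1:**
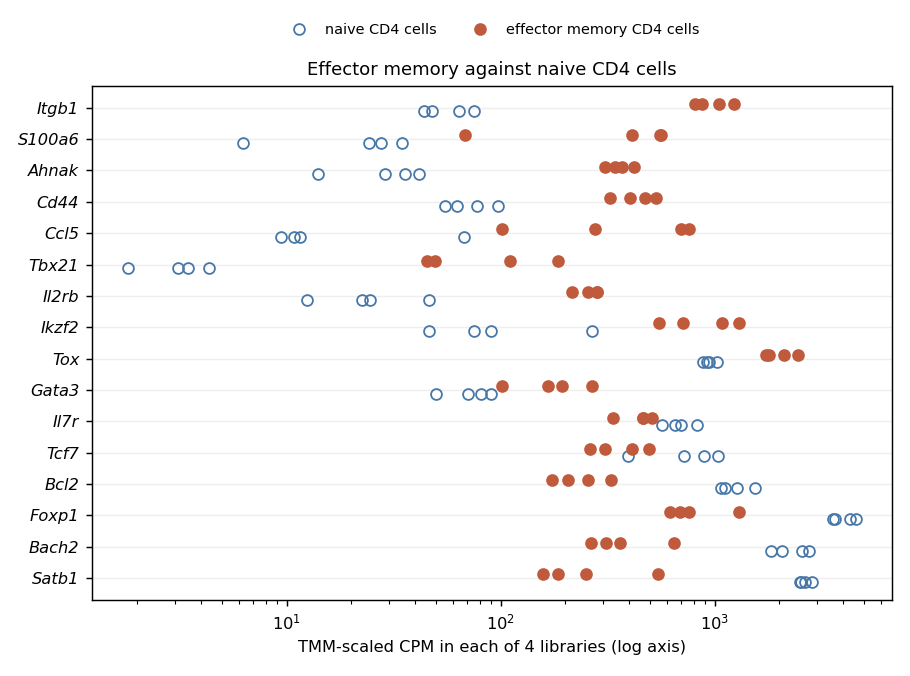
TMM-scaled CPM (log axis) of 16 genes in effector memory CD4 cells (filled, red) and naive CD4 cells (open, blue), with 1 point per library and 4 libraries each. Itgb1, S100a6, Ahnak and Cd44 lie to the right in members in every library, and Satb1, Bach2 and Foxp1 to the left.

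Every one of the 18 naive and central memory genes tested was lower in members, with a median log2 difference of -1.30. Satb1, a chromatin organiser of naive and regulatory T cells (chromosome 17, 51736187 to 51833290), stood at 544, 157, 185 and 252 CPM in members against 2530, 2507, 2638 and 2856, a log2 difference of -3.30 (SE 0.22, adjusted p = 1.06e-09). Bach2, a repressor that keeps T cells from effector differentiation, fell by 2.58 on the log2 scale, Foxp1, a factor of quiescence, by 2.30, and the survival factor Bcl2 by 2.39. Tcf7 fell by 1.02. Il7r, the receptor for interleukin-7 that naive and memory cells share, stood at 510, 334, 463 and 462 CPM against 567, 656, 828 and 694, a log2 difference of -0.63 (SE 0.16, adjusted p = 0.0114). Smc3-WT replicate 1 was the highest member library for Satb1 and Bach2.

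By size of difference, the genes with the largest rises were Cacna1d (log2 6.78), Ttc39c (6.30), Gpm6b (6.24), Lancl3 (5.90) and Slamf7 (5.49), a receptor of activated lymphocytes. Dlg2 (5.22) followed, though 29 of its 36 member UMIs came from members with dendritic cell markers, described below. Cxcr6, a tissue-homing chemokine receptor (5.18), Tox2, a factor of follicular helper cells (4.97), Morrbid, a long noncoding RNA (4.77), Entpd1, the ectonucleotidase CD39 (4.72), Tbx21 (4.71) and Hip1 (4.60) made up the rest of the 12. Among the genes that fell most, Gm14085, Ly6c1 and Sorcs2 had 0 UMIs in members and were at least 13-fold, 11.3-fold and 8.48-fold lower than in naive cells, against a floor of 3 UMIs over the member sum. Igfbp4 (log2 -4.91), St8sia6 (-3.92), Dapl1 (-3.29), Vipr1 (-3.13), Atp1b1 (-2.98), Als2cl (-2.96) and Lypd6b (-2.90) were among the others, with Satb1.

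Most genes tested of the Th1 and follicular helper lists were higher in members. Of the Th2 and Th17 lists only 2 of 11 and 1 of 11 genes were tested, too few to describe either programme. Of 7 Th1 genes tested, 5 were higher and 2 did not pass: Tbx21 stood at 45.4, 49.1, 185 and 110 CPM against 3.48, 1.82, 3.13 and 4.35 (log2 difference 4.71, SE 0.48, adjusted p = 3.33e-07), and Il18rap, a chain of the interleukin-18 receptor, rose by 3.90. Ccl5 stood at 102, 698, 278 and 756 CPM against 67.3, 11.6, 9.38 and 10.9 (log2 difference 4.50, SE 0.50, adjusted p = 9.94e-07), with 87 of its 251 member UMIs in 1 member. Of 8 follicular helper genes, 5 were higher, 1 lower (Il6st, the shared interleukin-6 receptor chain) and 2 did not pass. Cxcr5 rose by 2.15 and Tox by 1.10, whereas Bcl6 stood at 56.7, 88.5, 72.0 and 36.8 CPM against 29.0, 46.2, 59.4 and 36.3 (log2 difference 0.52, adjusted p = 0.398). Of the 2 Th2 genes tested, Gata3 rose by 1.28 and Il4ra fell by 2.0. The only gene of the Th17 list that was tested, Ramp1, a receptor subunit for calcitonin-related peptides, fell by 1.65.

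Genes used by regulatory T cells were higher although Foxp3 itself was barred by the rule: of 5 tested, 4 rose and 1 did not pass, with a median of 3.15. Ikzf2, which encodes the factor Helios (chromosome 1, 69531207 to 69687351), stood at 715, 550, 1305 and 1082 CPM in members against 75.4, 268, 90.6 and 46.4 in naive cells, a log2 difference of 3.15 (SE 0.34, adjusted p = 7.63e-07). Nrp1, the coreceptor neuropilin-1, rose by 3.39 and Il2ra, the α chain of the interleukin-2 receptor, by 1.53. After thinning to 1500 UMIs, Ikzf2 was found in 42.2% of members, 4.9% of naive CD4 cells and 0.925% of B cells. Whether some members were regulatory cells whose Foxp3 transcripts were not captured was not tested.

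The remaining lists changed less evenly. Of 9 costimulatory genes, 4 were higher, 1 lower and 4 did not pass: Tnfsf11 (RANKL) rose by 3.62 and Tnfrsf1b by 2.34, whereas Cd27 fell by 0.88. Among 20 T cell transcription factors, 9 were higher, 3 lower and 8 did not pass, with Rora up by 3.08, Zeb2 by 2.77 and Id2 by 2.59. For Zeb2, 69 of 124 member UMIs came from members with dendritic cell markers. Of 17 T cell receptor signalling genes, 2 were higher (Fyn, 0.71, and Lcp2, 0.51), 3 lower and 12 did not pass. None of 8 immediate early genes and none of 12 cohesin and loop genes passed. Smc3 stood at 159, 98.3, 195 and 84.0 CPM in members against 132, 118, 111 and 134 in naive cells. Of 7 cell cycle genes, 4 were higher, among them Top2a (2.89) and Mki67 (2.56), of which 56 of 117 and 42 of 80 member UMIs came from 1 deep member. Of 11 glycolysis genes, Gapdh alone passed (1.09).

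**Figure D2:**
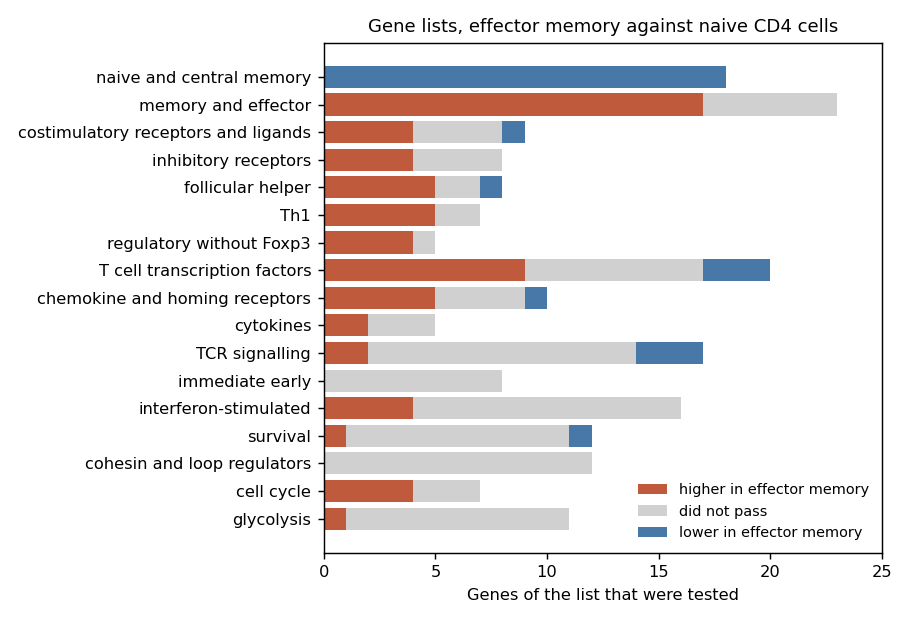
Number of genes of each list (horizontal axis, lists of at least 5 tested genes) that were higher in effector memory than in naive CD4 cells (red), lower (blue) or did not pass (grey). All 18 naive and central memory genes were lower and 17 of 23 memory and effector genes were higher, while all cohesin and immediate early genes fell in the grey class.

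Markers of other cell types were read in the same cells, and their part in these results was not tested. The 16 B cell genes summed to 2853, 1457, 532 and 478 CPM in members and to 2095, 835, 748 and 500 in naive cells. Of 8 tested, Cd74 and H2-Aa were higher in members (log2 1.18 and 1.05). Members with dendritic cell markers held 84 of 124 Cd74 and 44 of 60 H2-Aa member UMIs. The 14 dendritic cell genes summed to 543, 802, 490 and 522 CPM against 184, 126, 83.4 and 95, and Wdfy4 was the only one of 3 tested that was higher, with 36 of its 39 member UMIs in members with dendritic cell markers. Erythroid genes summed to 4344, 3296, 1256 and 16.5 CPM in members and 22760, 1028, 1403 and 15.7 in naive cells. Monocyte genes summed to between 138 and 520 CPM, neutrophil genes to between 31.9 and 253, natural killer genes to between 27.5 and 245, and genes of NKT and γδ T cells to between 16.5 and 231. The lists of CD8 T cells, plasma cells and platelets summed to at most 266, 88.0 and 31.9 CPM. Of 4 monocyte genes tested, Ccr2 and Ly6c2, which memory T cells can also carry, were higher in members (log2 3.88 and 2.06) and 2 did not pass. Both neutrophil genes tested, S100a8 and S100a9, were lower (-2.06 and -2.20), and Nkg7, the only gene of the CD8 list tested, was higher (4.11). None of 5 erythroid and 2 plasma cell genes passed, and no natural killer, NKT and γδ or platelet gene was tested. Markers at 0 in all members included Ly6g, Ncr1, Trdv4, Trav11, Fcgr1, Gp9, Sdc1 and Mzb1. Other markers of these lists had UMIs in members. Klrb1c had 6, 3, 8 and 2 UMIs by library and Trdc 7, 0, 0 and 1. Csf3r had 0, 1, 0 and 8, and C1qa 6, 1, 0 and 1. With cells that held a UMI of Cd79a, Cd79b, Ms4a1, Lyz2, Itgax, Siglech, Ncr1, Klrb1c or Trdc left out of both gates, 7, 16, 10 and 41 members remained and 419 genes passed.

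Against 142 CD4 cells with Foxp3 of the same libraries, which contain the regulatory T cells, 65 genes of 2211 were higher in members (2.94%) and 53 lower (2.4%), 5.34% in all, with a median over all genes of 0.01. Unlike the member rule, the Foxp3 gate set no limit on Lef1, Ccr7 or the 5 effector genes. Foxp3 itself was required in that gate and barred in the members. Differences in naive, memory and regulatory genes therefore describe what goes with the gates. DESeq2 called 46, and the count fell to 60 without Smc3-WT replicate 2 and to 29 without Smc3-cKO replicate 2. Ccl5 stood at 105, 729, 290 and 781 CPM in members against 25.8, 34.4, 35.7 and 18.5, a log2 difference of 4.31 (SE 0.35, adjusted p = 1.08e-07). Sntb2 (2.62), Pde7a, a phosphodiesterase (2.09), Themis, a regulator of receptor signalling in T cells (1.61), and Il18r1 (1.61) were higher too. Zeb2 was higher by 3.96, with 69 of 124 member UMIs in members with dendritic cell markers. Of 15 memory and effector genes, 6 were higher and 9 did not pass, and Itgb1 was higher by 1.52 and Cd44 by 1.14.

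Ikzf2 stood at 735, 575, 1366 and 1117 CPM in members against 3428, 3431, 5151 and 3902 in Foxp3 cells, a log2 difference of -2.11 (SE 0.15, adjusted p = 1.23e-08). Its level in members thus lay between naive and Foxp3 cells in each library. Il2ra fell by 2.67 relative to Foxp3 cells, the inhibitory receptor Ctla4 by 1.82 and Nrp1 by 0.97. Of 5 regulatory genes, 3 were lower (Ctla4 stands in another list). A Foxp3 UMI was required in 1 gate and barred in the other, so these differences go with the gates. Naive genes were also lower in members than in Foxp3 cells, 4 of 13 tested, among them Satb1 (-1.82) and Bach2 (-1.42). Cells with Lef1 or Ccr7 UMIs were barred from the members only, so this goes with the gates. Il7r (0.06, SE 0.19), Tox (-0.18, SE 0.16) and Il2rb (-0.05, SE 0.22) did not pass.

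The same rule with the coreceptors exchanged gave 34 CD8 cells (8, 7, 5 and 14). Of 1579 genes, 0 were higher in the CD4 members and 3 lower (0.19%), with a median over all genes of -0.03 (0.09 without TMM scaling). Before adjustment 84 genes had a p under 0.05, and 4 passed with DESeq2. Ccl5 stood at 97.6, 678, 281 and 744 CPM in CD4 members against 206, 7404, 6596 and 4706 in the CD8 cells (log2 difference -3.14, SE 0.44, adjusted p = 0.00354). Nkg7, a granule protein of cytotoxic cells, was lower in 3 of 4 libraries, at 54.2, 76.4, 208 and 77.5 CPM against 45.7, 699, 901 and 1298 (log2 difference -2.76, SE 0.50, adjusted p = 0.0338). The third gene, Gm44174, had 1 UMI in members and 74 in the CD8 cells. Without Smc3-WT replicate 2 a single gene passed, and without Smc3-WT replicate 1 there were 12. Itgb1 (0.40, SE 0.36), Cd44 (0.47, SE 0.34) and Ikzf2 (0.39, SE 0.33) did not pass, in a comparison with at most 14 CD8 cells a library.

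Members made up 3.47% (exact 95% interval 2.16 to 5.26) and 2.26% (1.46 to 3.35) of the CD4 T cells of Smc3-WT replicates 1 and 2, and 3.52% (2.02 to 5.65) and 4.65% (3.48 to 6.07) of those of Smc3-cKO replicates 1 and 2. The denominators were 605, 1060, 455 and 1097 cells, and the intervals cover counting error only. The Smc3-WT mean was 2.87% ± 0.853 (SD, n = 2) and the Smc3-cKO mean 4.08% ± 0.801 (SD, n = 2), a difference of 1.22 percentage points. The exact two-sided permutation test gave p = 0.333, the smallest that 2 against 2 libraries allow. Smc3-WT replicate 1 and Smc3-cKO replicate 1 differed by less than their intervals. Among cells with at most 5% mitochondrial UMIs the shares were 5.22%, 2.29%, 2.93% and 4.44%, and the direction turned, with a difference of -0.0698 points. The difference was 0.612 points without Smc3-WT replicate 2 and 0.649 without Smc3-cKO replicate 2.

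With every cell thinned to 1500 UMIs the shares were 2.37%, 3.21%, 3.93% and 7.01%, from 7, 18, 7 and 40 members. Among all kept cells, members were 0.172%, 0.172%, 0.224% and 0.376%, a difference of 0.128 points (exact permutation p = 0.333). Naive CD4 cells made up 46.6%, 50.8%, 32.1% and 39.7% of CD4 T cells, so there were 7.45, 4.46, 11 and 11.7 members per 100 naive cells. Both Smc3-cKO libraries lay above both Smc3-WT libraries on each of these scales and among CD4 T cells with all UMIs. They did not with at most 5% mitochondrial UMIs. Nor did they among CD4 T cells with no UMI of other lineages (2.99%, 1.94%, 2.95% and 4.48%). Shares of kept cells after thinning overlapped as well (0.0633%, 0.145%, 0.106% and 0.316%). No permutation test of a share can pass at this number of libraries.

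**Figure D3:**
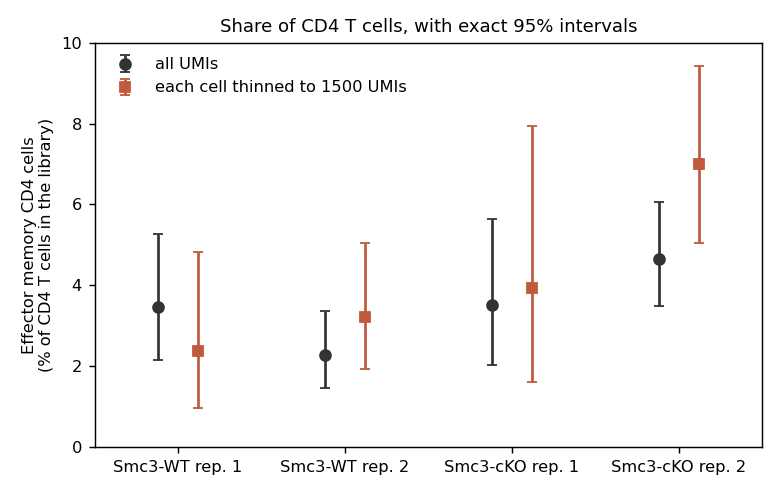
Effector memory CD4 cells as a percentage of the CD4 T cells of each library (vertical axis), with all UMIs (dark circles) and with each cell thinned to 1500 UMIs (red squares). Bars are exact 95% intervals for counting error, and with all UMIs those of the replicates numbered 2 do not overlap (1.46 to 3.35 against 3.48 to 6.07), while the other pairs of a Smc3-WT and a Smc3-cKO library do.

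Between genotypes, 5 genes were lower in members of the Smc3-cKO libraries and 0 were higher, of 2403 tested (0.208% called), with a median log2 difference over all genes of -0.03. An unadjusted p under 0.05 was reached by 83 genes, and DESeq2 called 6, all lower, among them the same 5. Smc3 itself had 14, 10, 19 and 16 UMIs in members, or 164, 98.5, 204 and 85.3 CPM, a log2 difference of 0.06 (SE 0.54). The deposited 3′ counts may lie outside the deleted part of the gene, so this value checks nothing about the labels.

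Adgrl3, an adhesion receptor of the latrophilin family (chromosome 5, 81019085 to 81827825), had 48 and 47 UMIs in the Smc3-WT members and 0 UMIs in either Smc3-cKO library. It was at least 46.3-fold lower in Smc3-cKO, against a floor of 3 UMIs over both Smc3-cKO libraries (adjusted p = 0.000181). Slc8a1, a sodium-calcium exchanger (chromosome 17, 81373105 to 81738387), had 39, 33, 0 and 3 UMIs, a log2 difference of -5.08 (SE 0.64, adjusted p = 0.00164). The other 3 genes belong to antigen presentation on MHC class II, which mouse T cells largely lack and dendritic cells and B cells carry. Cd74, the invariant chain, had 60, 48, 4 and 12 UMIs (log2 difference -3.37, SE 0.46, adjusted p = 0.00272). H2-Aa (chromosome 17, 34282744 to 34287823) had 25, 28, 3 and 4 (-3.44, SE 0.53, adjusted p = 0.00867), and H2-Ab1 (chromosome 17, 34263227 to 34269418) had 20, 21, 0 and 1 (-5.59, SE 0.88, adjusted p = 0.00877).

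The UMIs of these genes came from few members. Members with 3 or more UMIs over 12 dendritic cell markers (Itgax, Flt3, Zbtb46, Xcr1, Clec9a, Cd209a, Clec4a4, Siglech, Dscam, Adam23, Cst3 and Wdfy4) numbered 3, 3, 1 and 3. They were not of 1 kind, since 3 of them held UMIs of a single listed gene. These were 4 UMIs of Cst3 in a member of Smc3-WT replicate 1, 3 of Cst3 in a member of Smc3-WT replicate 2 with 15 CD3 UMIs, and 27 of Dscam in the member of Smc3-cKO replicate 1, which had 7 CD3 UMIs. The others held UMIs of at least 2 listed genes. Together the members with 3 or more such UMIs held 95 of 95 Adgrl3 UMIs, 72 of 75 Slc8a1 UMIs, 84 of 124 Cd74 UMIs, 44 of 60 H2-Aa UMIs and 32 of 42 H2-Ab1 UMIs. All Adgrl3 UMIs lay in 4 Smc3-WT members with 4056, 5590, 9406 and 3701 UMIs, which had 24, 5, 36 and 29 dendritic cell marker UMIs and 1, 1, 3 and 1 CD3 UMIs. In the other members of Smc3-WT replicate 1, Cd74 had 25 UMIs in 11 of 18 members, and in the other members of the remaining libraries it had 4, 4 and 7 UMIs.

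Left without the members with dendritic cell markers, a choice made after seeing the data, the fit called 0 of 2040 genes (46 with an unadjusted p under 0.05), and none of the 5 genes then passed the filter on low counts. The count was also 0 after removal of the 3 members marked as doublets by Scrublet, which lay in Smc3-WT replicate 2 (1) and Smc3-cKO replicate 2 (2), and 0 with at least 3 effector UMIs required (58 and 79 with an unadjusted p under 0.05). It rose to 18 or 41 when Smc3-WT replicate 1 or 2 was left out, and to 19 or 22 when Smc3-cKO replicate 1 or 2 was. In those fits, 4, 4, 5 and 5 of the 5 genes were called, with 1 library in an arm that is assumed to vary like the libraries of the other genotype. Dendritic cell genes summed to 543 and 802 CPM in the Smc3-WT members and 490 and 522 in the Smc3-cKO members. The genes behind these sums differed: in Smc3-cKO replicate 1, Dscam made up 287 CPM, all of it in 1 member, and Ccr9 149 CPM, while Itgax, Flt3, Zbtb46, Clec9a, Adam23 and Wdfy4 had 0 UMIs.

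**Figure D4:**
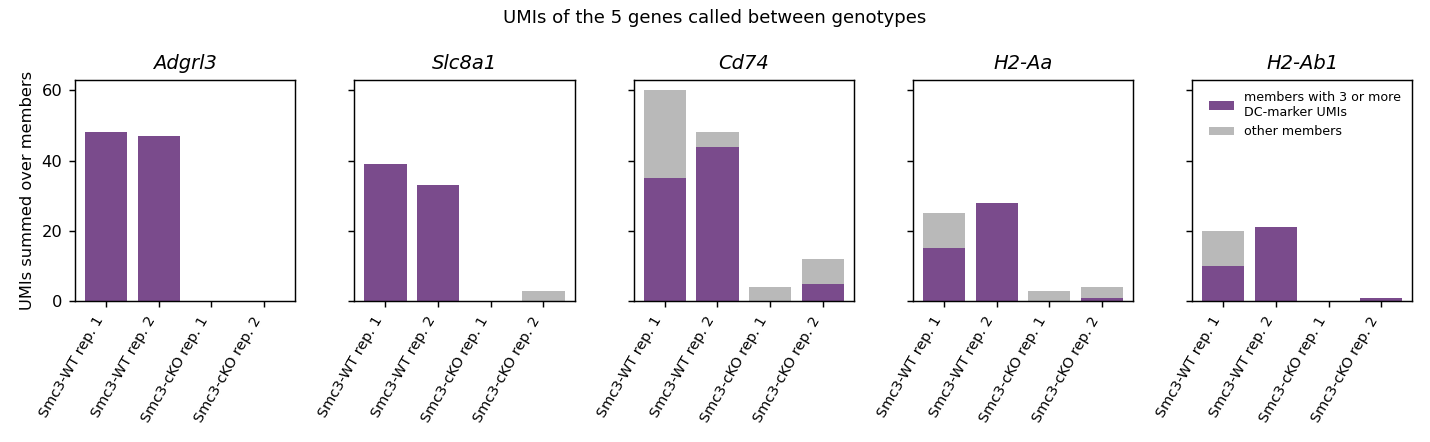
UMIs of the 5 genes called between genotypes, summed over the members of each library (rep., replicate), split into members with 3 or more dendritic cell marker UMIs (purple) and other members (grey). The Adgrl3 bars of the Smc3-WT libraries, 48 and 47 UMIs, are all purple, and grey parts are largest for Cd74 in Smc3-WT replicate 1.

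No gene of the T cell lists passed between genotypes. The 17 memory and effector genes tested had a median log2 difference of 0.42, the 13 naive and central memory genes -0.28, the 17 receptor signalling genes 0.04, and the 12 cohesin and loop genes -0.02. Itgb1 stood at 904, 1054, 848 and 1247 CPM (0.10, SE 0.42), Cd44 at 552, 325, 494 and 410 (0.04, SE 0.39), and Ccl5 at 106, 699, 290 and 768 (0.41, SE 0.62). The spread between the 2 Smc3-WT libraries exceeded the difference between genotypes for S100a6, with 70.4 and 561 CPM against 429 and 565. Tbx21 stood at 47.0 and 49.2 CPM against 193 and 112 (1.59, SE 0.65, unadjusted p = 0.029) and Ikzf2 had 63, 56, 127 and 206 UMIs (0.93, SE 0.42, unadjusted p = 0.0442), both without overlap, with adjusted p of 0.999. Among cohesin genes, Rad21 (0.83, SE 0.48) and Stag2 (0.64, SE 0.40) were the largest positive values, and Smc1a was at -0.37 (SE 0.40).

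The largest positive differences that did not pass were Rgs1 (3.59, SE 1.06, adjusted p = 0.679), Hist1h2ap (2.83, SE 1.10), Hist1h1b (2.65, SE 0.65), Hmgb2 (1.81, SE 0.49) and Abcf1 (1.74, SE 0.70). Rgs1, a regulator of chemokine receptor signalling, had 0, 2, 15 and 23 UMIs. Hmgb2, a chromatin protein of dividing cells, had 11, 29, 95 and 91, with 87 of its 226 member UMIs in 1 member of Smc3-cKO replicate 1. Single Smc3-cKO members also held 28 of 60 Hist1h1b and 22 of 37 Hist1h2ap UMIs. The top member held 7 of 40 UMIs for Rgs1 and 10 of 46 for Abcf1. Rgs1, Hist1h1b and Hmgb2 passed in some of the alternative fits, with no filter on low counts for all 3 (adjusted p = 0.0086, 0.0091 and 0.0163). Erythroid genes had the largest median among lists of other cell types that did not pass, -2.88 over 4 genes, and Hbb-bs had 183, 154, 33 and 1 UMIs.

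The genotype difference in members was then set against that in naive CD4 cells of the same libraries by an interaction test. Of 7108 genes, 10 differed with a more positive genotype effect in members (0.141%) and 4 with a more negative one (0.0563%), 0.197% in all, and DESeq2 called 2. Among the 10 were genes of dividing cells: Hist1h1b had 4, 2, 28 and 26 UMIs in members and 68, 11, 1 and 2 in naive cells, and Mki67 had 18, 1, 44 and 17 against 85, 24, 22 and 1. In Smc3-cKO, 1 member of replicate 1 with 25448 UMIs, 27.1% of its library's member sum, held 269 UMIs of 14 cell cycle genes, and 1 member of replicate 2 with 14318 UMIs held 160. Left without these members above 10000 UMIs, a choice made after seeing the data, 4 genes passed (Slc8a1, Tcf4, Ikzf2 and Nrp1), and no cell cycle gene did.

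Ikzf2 and Nrp1 were the genes that passed with both the deep members and those with dendritic cell markers left out, with interaction log2 differences of 1.99 and 3.34 (adjusted p = 0.0243 for each). Ikzf2 had 63, 56, 127 and 206 UMIs in members and 65, 441, 58 and 64 in naive cells, and the member with most of them held 9.96%. Its naive level was 268 CPM in Smc3-WT replicate 2 against 46.4 to 90.6 in the others, and without that library the interaction was 1.01 (adjusted p = 0.516). Nrp1 had 11, 16, 15 and 53 UMIs in members and 25, 61, 5 and 6 in naive cells. Its adjusted p was 0.304 without Smc3-WT replicate 1 and 0.662 without Smc3-cKO replicate 2.

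**Figure D5:**
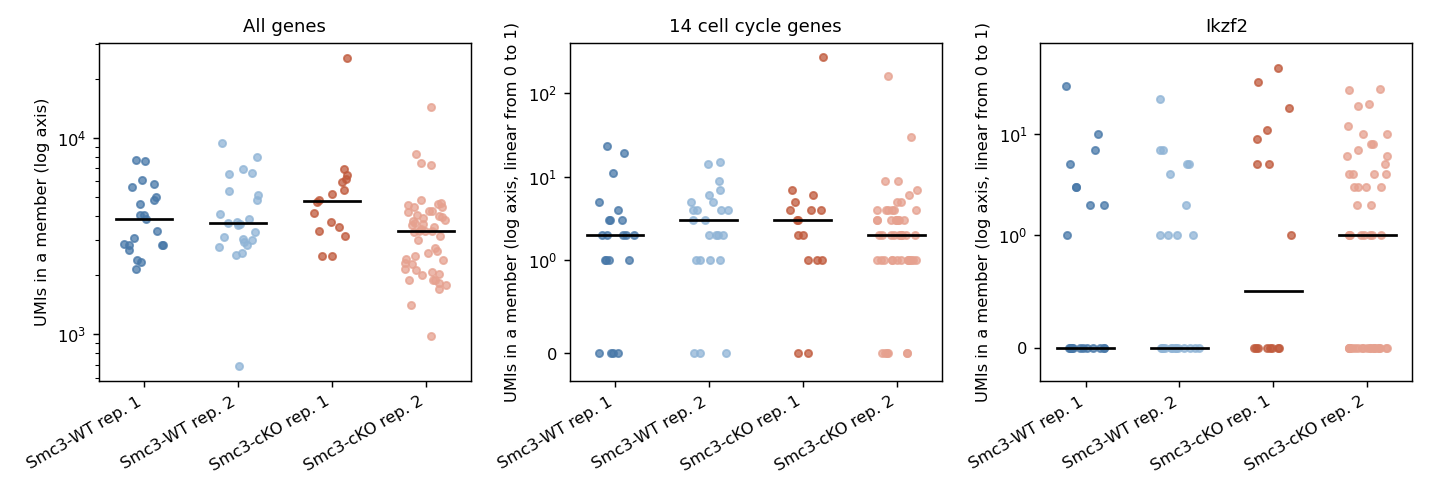
UMIs in each effector memory CD4 cell of the 4 libraries for all genes (left, log axis), for 14 cell cycle genes (middle) and for Ikzf2 (right, both log axes that are linear from 0 to 1). Each point is 1 member, shifted sideways at random, and black lines are medians: 2 Smc3-cKO members lie above 10000 UMIs and also hold 269 and 160 cell cycle UMIs, while Ikzf2 UMIs are spread over 59 members.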

How the data were processed

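Raw UMI counts per gene and barcode were deposited for 4 single-cell libraries made with a Chromium 3′ kit. The counts are the authors' output of Cell Ranger 7.0.0, per the file headers. The genome build, mm10, comes from the submitters' processing notes. Cell calling settings are not given in the sources used here. Kept barcodes had at least 200 genes and no more than 10% mitochondrial UMIs. Scrublet (scanpy 1.11.5) marked 0.859%, 6.21%, 3.61% and 6.37% of kept cells, against 12.9%, 11.5%, 7.26% and 11.3% expected from cell numbers, and 0, 1, 0 and 2 members; doublets were removed only as an alternative.

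Counts were summed per library and gate and tested with edgeR 4.0.16 (R 4.3.3; filterByExpr, TMM, quasi-likelihood F test, Benjamini-Hochberg adjusted p under 0.05). SE is the log2 difference divided by the square root of F. The comparisons between gates and the interaction had library as a block, and 18 rule genes were dropped before adjustment. Scripts were tested on simulated data. Shares were compared by exact two-sided permutation over libraries, with exact Clopper-Pearson 95% intervals.

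Genes were named up to 12 a direction, by fold, past the threshold and with at least 50 CPM, or up to 5 that did not pass, and from 30 gene lists as counts with examples. A few genes are not reported here and were left out of the lists. The members and lists were chosen with earlier results of these data known. Alternatives were DESeq2 1.42.0, no filter on low counts, no TMM, each library left out, Scrublet doublets removed, no UMI of 9 lineage genes, other gate and mitochondrial limits, equal cell numbers, thinning, and a replicate block. Leaving out members with dendritic cell markers or above 10000 UMIs was chosen after seeing the data.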

Additional observations from a re-analysis of the deposited data

Results flagged for a closer look

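For 14 genes the effect of genotype in effector memory CD4 cells differed from that in naive CD4 cells by the interaction test of edgeR (adjusted p under 0.05). Values are log2 differences between the 2 genotype effects, followed by UMIs in Smc3-WT replicates 1 and 2 and Smc3-cKO replicates 1 and 2. The largest share of a gene's member UMIs held by 1 member is given where it was high, and its part was not tested.

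In 7 genes of dividing cells the difference was positive. Hist1h2ae differed by 7.95, with 1, 0, 19 and 7 UMIs in members, 70.4% of them in 1 member. Hist1h1b differed by 7.01, with 46.7% of 60 UMIs in 1 member. Hist1h2ap differed by 6.59, with 3, 0, 12 and 22 UMIs in members and 32, 13, 3 and 0 in naive cells. Kif11, a spindle motor, differed by 4.69, with 4, 0, 20 and 17 UMIs in members. Mki67 differed by 3.48 and Top2a by 2.61, with 52.5% and 47.9% of their UMIs in the same Smc3-cKO member of 25448 UMIs. H2afz, a histone variant found in 67 members, differed by 1.74, with 12, 22, 50 and 108 UMIs in members and 154, 349, 105 and 271 in naive cells. Without Smc3-WT replicate 1, none of these 7 passed.

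The other positive differences were those of Tcf4 (4.68), Nrp1 (3.25) and Ikzf2 (2.19). Members with dendritic cell markers held 92 of 103, 9 of 95 and 53 of 452 of their member UMIs. Tcf4, a factor of plasmacytoid dendritic cells, had 5, 1, 3 and 94 UMIs in members, 57 of them in 1 Smc3-cKO member that also held 41 dendritic cell marker UMIs and 1 CD3 UMI, and its adjusted p was 0.91 without Smc3-cKO replicate 2.

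Negative differences were found for Slc8a1 (-6.43; 39, 33, 0 and 3 UMIs in members, 8, 11, 9 and 30 in naive cells), Acer3 (-3.85; 22, 7, 0 and 3 in members), Ube2e2 (-3.61; 12, 17, 0 and 5) and Abcg3 (-2.43; 36, 16, 1 and 13). Members with dendritic cell markers held 72 of 75, 20 of 32, 23 of 34 and 33 of 66 of these UMIs.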

How the results depend on the processing

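The number of members (16 to 51 a library) limits every comparison, and with 2 libraries a genotype no share can pass a permutation test. Counts of genes called moved with the setting as follows, and the cause was not tested. Between genotypes (5 genes) the count was 53 with no filter on low counts (14 higher, 39 lower), 2 with at most 5% mitochondrial UMIs, and 0 with no UMI of other lineages (30 with an unadjusted p under 0.05), with Scrublet doublets removed (58), with at least 3 effector UMIs (79), without members with dendritic cell markers (46) and without both kinds of member (26). Leaving out 1 library gave 18 to 41. The replicate block gave 20 (4 higher, 16 lower). The labels do not say what a number shares. Deviations of same-numbered libraries correlated at 0.159 in members and 0.427 in naive cells, and with 2 pairs pairing was not established.

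Against naive cells (773) the count was 483 with DESeq2, 419 with no UMI of other lineages, 511 with no library block and 407 to 786 with 1 library left out; it was 739 without TMM (437 higher, 302 lower). Against Foxp3 cells (118) it was 46 with DESeq2, 237 with no filter, 35 with no UMI of other lineages, 75 without both kinds of member, 47 with no library block and 29 to 132 with 1 library left out. Against CD8 cells (3) it was 44 with no filter, 0 with no UMI of other lineages (25 unadjusted), 1 with no library block and 1 to 12 with 1 library left out. For the interaction (14) it was 2 with DESeq2, 22 with no filter, 2 with no UMI of other lineages, 1 with Scrublet doublets removed, 4 without members above 10000 UMIs, 2 without both kinds of member, 3 without Smc3-WT replicate 1 and 33 without Smc3-WT replicate 2, the range with 1 library left out. Between the S100a4 and Icos-Maf members (0) it was 11 with no filter, 1 with no UMI of other lineages, 6 with no library block and 0 to 9 with 1 library left out, the highest without Smc3-WT replicate 1.

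The interaction of Hist1h2ap reversed to -1.73 with no UMI of other lineages, -2.42 without members above 10000 UMIs and -2.17 without both kinds of member, that of Top2a to -0.045 and -0.20 under the last 2 settings, that of Kif11 to -0.085 without members above 10000 UMIs, and that of Ube2e2 to 0.86 with no UMI of other lineages. The difference in share of CD4 T cells reversed to -0.0698 points with at most 5% mitochondrial UMIs and ranged from 0.612 to 1.82 points with 1 library left out; the share of kept cells ranged from 0.0522 to 0.204. Of the values of named genes, 285 of 285 against naive cells kept their direction and side of the threshold, as did 261 against Foxp3 cells, where 19 no longer passed. Between genotypes 102 did, 11 no longer passed and 11 newly passed. Against CD8 cells 27 did and 7 no longer passed. For the interaction 121 did, 70 no longer passed and 7 reversed.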
